A study of Mus musculus with 2 samples.

Results

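The genes described here encode the protein components of the mitochondrial ribosome. They were taken as the rows of the deposited table of normalized counts whose symbol is Mrpl or Mrps followed by a number and at most 1 letter, with 1 row per symbol, the one with the highest mean of both libraries. The rule found 77 genes among 24013 gene symbols, 48 named Mrpl and 29 named Mrps. The rule itself uses no measured difference between the libraries, but the members were chosen with earlier results of these data known.

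The transcriptome of CD8+ T cells was measured in 1 library from DGKzeta-/- mice aged 6 weeks and 1 library from wild-type mice aged 7 weeks, both of the strain C57BL/6. Both groups share the culture: naive CD8+ T cells purified from spleen were stimulated for 24 hours by anti-CD3 and anti-CD28 antibodies fixed to the plate, and RNA was then taken. Diacylglycerol kinase zeta (DGKzeta) removes diacylglycerol, the second messenger that carries the T cell receptor signal to Ras and protein kinase C. The labels state neither the number of animals behind a library nor their sex, and they do not say which part of the gene was deleted. With 1 library per genotype no difference has a replicate check and no test was possible. Intervals are exact 95% intervals on the reads of both libraries and cover counting error only.

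Mitochondria carry their own ribosome, which makes the few respiratory chain and ATP synthase proteins that mitochondrial DNA encodes. Its RNAs come from mitochondrial DNA, but all of its proteins are encoded in the nucleus, made in the cytosol and imported. The large subunit joins amino acids and is attached to the inner membrane, and the small subunit binds and decodes the messenger. A part of the proteins has counterparts in bacterial ribosomes and the others are found in mitochondria only. Naive T cells hold few mitochondria, and activation is known to be followed by growth of the mitochondrial mass and of its translation machinery.

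The deficient library held 13464169 reads and the wild-type library 37211969 reads over 1 row per gene, so the wild-type library was 2.76 times as deep. The transcript of the targeted gene, Dgkz, stood at 2591 in the deficient and 6714 normalized counts in the wild-type library. The libraries also differed in the X-inactivation RNA Xist, at 9206 and 14.0 normalized counts, so genotype, age and sex cannot be told apart in any difference below. By the GENCODE M21 annotation 0 of the 77 genes lie on a sex chromosome. Of 7 CD8 T cell markers 5 were lower in the deficient library, with summed levels of 36166 and 43329 normalized counts, and Cd8a itself stood at 8455 and 13090. All 11 B cell markers were lower in the deficient library, with a summed level of 2296 against 3144 normalized counts. The 3 CD4 T cell markers summed to 422 against 490, with Cd4 at 53.2 against 171 and Foxp3 at 321 against 262. Of 7 NK and innate-like markers 5 were lower in the deficient library, 3 of them (Ncr1, Klrb1c and Klra8) at 0 there, while the list summed to 2629 against 1962 with Eomes at 1861 against 956. Those 3 genes held only 7, 9 and 2 reads in the deeper wild-type library, so their 0 does not show absence. The myeloid markers, 6 of 8 lower in the deficient library, summed to 274 and 285, the neutrophil and mast cell markers to 3.43 and 20.99 and the erythroid and platelet markers to 58.3 and 68.2 normalized counts in the deficient and the wild-type library. The neutrophil gene Elane and the lysozyme gene Lyz1 were listed at 0 in both. Genes of the neutrophil and mast cell list held at most 13 reads in the wild-type and 1 in the deficient library, near the floor of detection. The part of other cells in the results was not tested, and in such bulk samples fewer cells of a type and less RNA per cell cannot be told apart.

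All 77 genes were read well above the minimum mean of 50 normalized counts that a gene needed to be compared. The deficient library held between 81 and 2118 reads per gene (median 799) and the wild-type library between 273 and 5061 (median 2098). In normalized counts the genes spanned 139 to 3632 in the deficient library (median 1370) and 159 to 2951 in the wild-type library (median 1223). Together they made up 0.50% of the normalized counts of the deficient library and 0.465% of those of the wild-type library, with summed levels of 115487 and 100913. The plot of normalized counts by subunit shows the gap between the libraries pointing the same way for most genes.

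**Figure D1:**
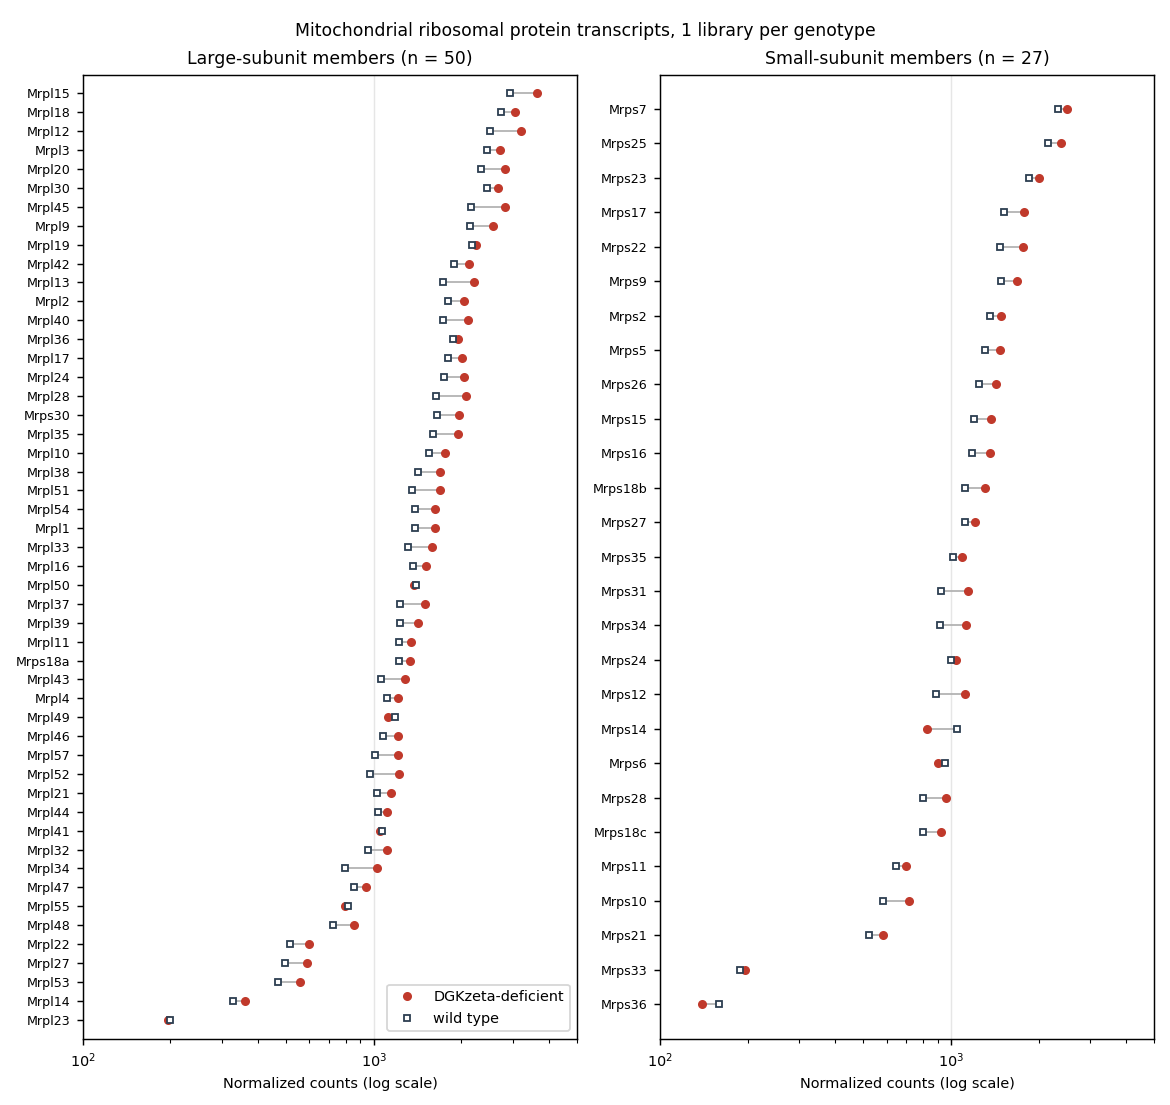
Normalized counts of the 77 genes on a log scale, with filled circles for the DGKzeta-deficient and open squares for the wild-type library, ordered by mean level within each subunit. In 69 genes the circle lies to the right of the square; Mrps14 shows the widest gap in the other direction, at 828 against 1051.

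The genes with the most normalized counts, not corrected for length, were Mrpl15, Mrpl18, Mrpl12, Mrpl3 and Mrpl20, all of the large subunit. Mrpl15, counterpart of bacterial L15, was read at 3632 normalized counts in the deficient library and 2951 in the wild-type library. The stalk protein gene Mrpl12 stood at 3202 against 2503. The counts of both were higher in the deficient library, by 1.23-fold (1.17 to 1.30) and 1.28-fold (1.21 to 1.35). Mrpl18 stood at 3066 against 2744, Mrpl3 at 2713 against 2443 and Mrpl20 at 2823 against 2331 normalized counts.

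At the low end of the same scale were Mrps36, Mrps33, Mrpl23, Mrpl14 and Mrpl53. Mrps36 was read at 139 normalized counts in the deficient and 159 in the wild-type library, Mrps33 at 196 against 188 and Mrpl23 at 196 against 199. For these 3 genes the libraries cannot be separated at this depth, since the counting intervals of the fold run from 0.672 to 1.12, from 0.831 to 1.29 and from 0.786 to 1.22. Mrps36 was first described as a ribosomal protein and is now assigned to the oxoglutarate dehydrogenase complex. It was kept because its symbol meets the rule. Mrpl14 stood at 362 against 328 and Mrpl53 at 556 against 468 normalized counts.

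Levels of different genes can only be set side by side per length. Divided by the length of the matching GENCODE M21 transcript, the mean levels ran from 173 normalized counts per kilobase for Mrps33 to 3373 for Mrpl20, a 19.5-fold range, with a median of 912 and quartiles of 535 and 1370. Mrpl33 (3031), Mrpl42 (3014) and Mrpl30 (2638) followed Mrpl20, and Mrps35 (253), Mrpl17 (260) and Mrps36 (261) followed Mrps33. The transcripts counted by the authors may end elsewhere than those of GENCODE, so the order of near neighbours is not firm.

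The mitochondrial ribosomal protein genes were slightly higher in the deficient library, and they were so as a narrow band. The log2 ratio of a gene is the log2 of its normalized counts plus 10 in the deficient library over those plus 10 in the wild-type library. Of the 77 genes 69 had a log2 ratio above 0, where 58.2% of all 10518 genes compared did. Their median log2 ratio was 0.19 with quartiles of 0.12 and 0.26, beside a median of 0.055 with quartiles of -0.14 and 0.22 over all genes compared. A log2 ratio above the median of all genes was found in 67 of the 77, against 50% of all genes by construction.

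No member was at least 2-fold different: 0 of 77 were 2-fold higher, beside 1.3% of all genes compared, and 0 were 2-fold lower, beside 1.29%. By a smaller threshold, 25% higher or 20% lower and thus a log2 ratio of 0.322 in either direction, 7 members were higher (13.8% of all genes) and 1 was lower (12.8% of all genes). The count of 7 was 0 at equal totals, 1 after centring on the median of all genes and 0 with a trend on transcript length and GC content removed. In the band between equal levels and 25% higher stood 62 members (44.3% of all genes).

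**Figure D2:**
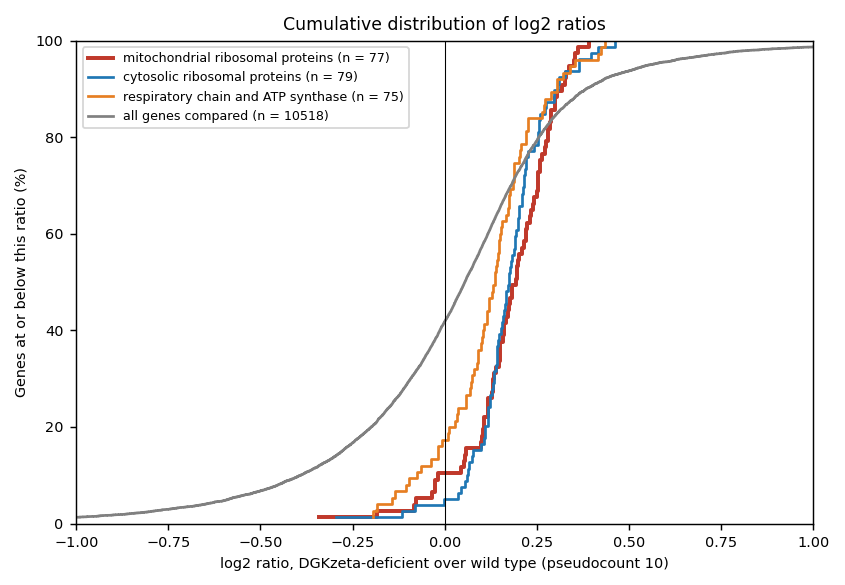
Cumulative share of genes (%) against the log2 ratio of the DGKzeta-deficient over the wild-type library, for the 77 mitochondrial ribosomal protein genes, 2 other gene classes and all 10518 genes compared. The curve of the members is steep and runs from -0.34 to 0.39, with its median at 0.19, and the curve of all genes, with its median at 0.055, is flatter at both ends.

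Counting error allows part of these small differences to be read gene by gene. The median half-width of a member's interval was 0.12 on the log2 scale, running from 0.074 to 0.37. Under the authors' scaling the interval of the fold lay above 1 in 57 members, where 35.8% of all genes compared met that condition. It lay below 1 in 1 member (21.7% of all genes) and spanned 1 in the other 19. These counts were not recomputed at equal totals, which move the median of all genes by -0.088. Some lower bounds lie close to 1, such as 1.05 for Mrpl27 and 1.05 for Mrps9, so the count of 57 depends on the scaling. The standard deviation of the 77 log2 ratios was 0.13, beside 0.42 for all genes compared, 0.11 for cytosolic ribosomal protein genes and 0.14 for respiratory chain and ATP synthase genes. The narrow band was thus shared with both of these classes.

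**Figure D3:**
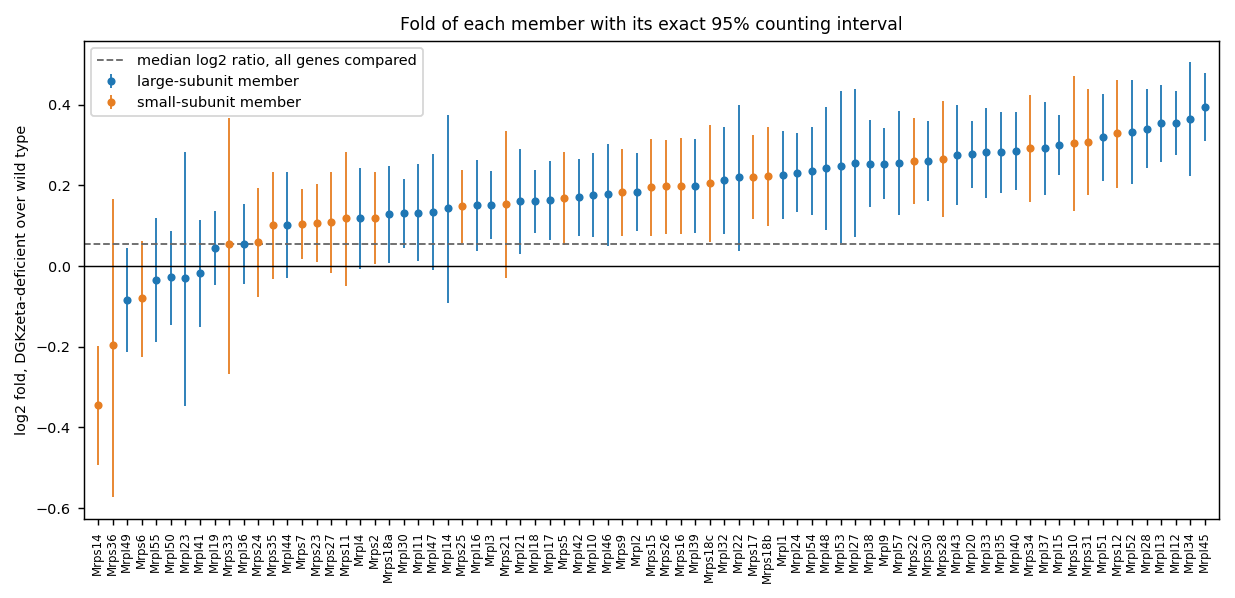
log2 fold of the DGKzeta-deficient over the wild-type library for each of the 77 genes, in ascending order, with exact 95% counting intervals as bars and the subunit as colour. The points rise from Mrps14 at the left to Mrpl45 at the right, and most bars stand above both the zero line and the dashed median of all genes.

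The library scaling sets where 0 lies. When both libraries were scaled to equal totals the median of all genes moved by -0.088 to -0.033 and that of the members to 0.10, with 65 members above 0. Mrps24, Mrpl36, Mrps33 and Mrpl19, with log2 ratios of 0.058, 0.055, 0.051 and 0.044 under the authors' scaling, changed sign, while 66 members lay above the median of all genes under that scaling. Relative to that median the members stood 0.14 higher under the authors' scaling.

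Transcript length moved with the log2 ratio over all genes. The genes were put into 5 bins of equal number by length. In the bin of the shortest transcripts, up to 1628 bases, the median log2 ratio of all genes was 0.15, and in the next bins it was 0.098, 0.053, 0.0071 and -0.059. Mitochondrial ribosomal protein transcripts are short, with a median length of 1226 bases beside 2913 over all genes compared, and 51 of the 77 lay in the shortest bin. Within that bin 34 of 51 members lay above the median of its genes, and the members' median was 0.22 against 0.15. In the bins of longer transcripts the medians of the 8, 7, 8 and 3 members there were 0.11, 0.20, 0.21 and 0.15, each above the median of all genes of that bin, and all 11 members in the 2 longest bins lay above it.

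When the trend on length and GC content was fitted over 10399 genes and removed, the members' median log2 ratio was 0.072, beside 0.012 for all genes. Then 52 of the 77 members lay above the median of all genes (50% of all genes by construction). Among the members themselves the log2 ratio hardly went with length, with a Pearson correlation of -0.043 and a Spearman correlation of -0.054 over 77 genes that share the same 2 libraries. With the mean level it had a Pearson correlation of 0.36 and a Spearman correlation of 0.22. What makes the ratio go with length in these libraries was not tested.

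**Figure D4:**
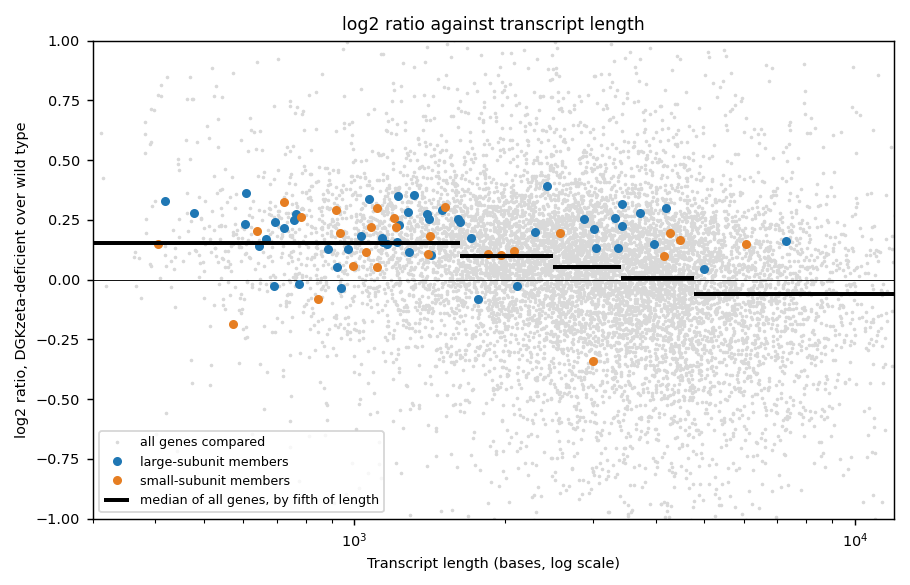
log2 ratio of the DGKzeta-deficient over the wild-type library against transcript length in bases (log scale), with all genes compared as grey points, members coloured by subunit and black bars for the all-gene median in each of 5 bins of length. The black bars step down from 0.15 to -0.059, while all 11 members in the 2 longest bins lie above them. Genes past a log2 ratio of 1 or -1, and lengths under 300 or over 12000 bases, lie outside the axes.

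The 10 members with the highest log2 ratio held 7 of the large subunit and Mrps12, Mrps31 and Mrps10 of the small one. Mrpl45, which sits beside the exit of the peptide tunnel and ties the ribosome to the inner membrane, was read at 2828 normalized counts in the deficient and 2152 in the wild-type library, 1.31-fold higher (1.24 to 1.39). Mrpl34, counterpart of bacterial L34, stood at 1026 against 797, 1.29-fold higher (1.17 to 1.42). These 2 and Mrpl12 headed the list, and Mrpl12 encodes the stalk protein to which translation factors bind, also reported to bind the mitochondrial RNA polymerase. Mrpl13 (2205 against 1727), Mrpl28 (2075 against 1639) and Mrpl52 (1223 against 971) followed. Mrps12, counterpart of the bacterial decoding-centre protein S12, stood at 1113 against 886 normalized counts, 1.26-fold higher (1.14 to 1.38). These 7 genes, Mrpl45 to Mrps12, are all members at least 25% higher, and Mrps12 just passed at a log2 ratio of 0.33. Mrpl51 (0.32), Mrps31 (0.31) and Mrps10 (0.30) lay just under the threshold of 0.322.

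At the other end 8 members were lower in the deficient library, and 1 of them stood apart. Mrps14, counterpart of bacterial S14 in the head of the small subunit, was read at 828 normalized counts in the deficient and 1051 in the wild-type library, 1.27-fold lower (1.15 to 1.41). It was the 1 member at least 20% lower and the 1 member whose counting interval lay below 1. The next were Mrps36, Mrpl49 (1116 against 1183) and Mrps6 (902 against 953), with log2 ratios of -0.18, -0.083 and -0.079. Mrpl55 (799 against 818), Mrpl50 (1375 against 1402), Mrpl23 and Mrpl41 (1053 against 1066) lay between -0.033 and -0.017, a difference not detectable at this depth. Mrpl19 at 2250 against 2182 and Mrps33 completed the lowest 10. With the length and GC trend removed, Mrps36 at -0.40 and Mrps14 at -0.37 were the lowest and both were at least 20% lower. For Mrps36 the fitted trend of 0.21 made up much of this value, and its counting interval of 0.672 to 1.12 spanned 1.

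By role, large-subunit genes had a slightly higher median than small-subunit genes. Mrps30 and Mrps18a are counted with the large subunit, where their proteins are found. The 50 large-subunit members had a median log2 ratio of 0.21 with quartiles of 0.13 and 0.27, and 44 lay above the median of all genes. For the 27 small-subunit members the median was 0.17 with quartiles of 0.11 and 0.22, and 23 lay above it. The quartile ranges overlap, and with the trend removed the medians were 0.088 and 0.039. The 48 members with a bacterial counterpart had a median of 0.18 and the 29 found in mitochondria only one of 0.23.

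In the functional parts of the ribosome most genes stood in the same band. At the base of the stalk, where elongation factors dock, Mrpl12, Mrpl11 and Mrpl10 had log2 ratios of 0.35, 0.13 and 0.18. Around the exit of the peptide tunnel they ran from -0.027 for Mrpl23 through 0.13 (Mrpl47), 0.16 (Mrpl17), 0.22 (Mrpl22) and 0.23 (Mrpl24) to 0.39 for Mrpl45. The central protuberance, which in bacteria is built around an additional ribosomal RNA that mitochondria lack, had 9 listed genes with a median of 0.24. Of these Mrpl52 (0.33), Mrpl40 (0.28), Mrpl38 (0.25), Mrpl27 (0.25), Mrpl48 (0.24), Mrpl46 (0.18) and Mrpl18 (0.16) were above the median of all genes. So was Ict1, a large-subunit protein with peptide release activity (0.077), while Mrpl55 was not (-0.033). At the messenger entry and decoding site Mrps12 (0.33), Ptcd3 (0.26), Mrps5 (0.17) and Mrps24 (0.058) all had log2 ratios above 0.

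The 3 Mrps18 genes encode related proteins that take different places, Mrps18a in the large and the other two in the small subunit. Mrps18a was read at 1336 normalized counts in the deficient and 1222 in the wild-type library, Mrps18b at 1303 against 1117 and Mrps18c at 921 against 799. Their log2 ratios were 0.13, 0.22 and 0.20, closer to each other than their counting intervals can separate. Mrps30 stood at 1971 against 1644, a log2 ratio of 0.26.

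Proteins of the same ribosome with other names showed similar values. Dap3, a GTP-binding small-subunit protein first known from cell death, was read at 2372 normalized counts in the deficient and 2126 in the wild-type library, and Ptcd3, a pentatricopeptide repeat protein, at 3737 against 3124. Chchd1 stood at 1394 against 1155 and Aurkaip1 at 2326 against 1920. These 4 small-subunit genes had log2 ratios of 0.16, 0.26, 0.27 and 0.28. Of the large subunit, Gadd45gip1 stood at 3156 against 2842 and Ict1 at 1087 against 1030, with log2 ratios of 0.15 and 0.077. The member Mrpl57, also known by another name, stood at 1207 against 1011, a log2 ratio of 0.25.

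Promoter letters played no part in the rule. RefSeq promoter windows (build GRCm38.p6, 250 bases before to 50 after the start) were at hand for 68 of the 77 genes. They were searched on both strands for the ETS-family core CCGGAAG, the letters of nuclear respiratory factor 1 (NRF1), GCGCA and GCGC with any 1 base between them, and the YY1 core ATGGCGGC, factors known as regulators of nuclear genes for mitochondria. The ETS core was in the windows of 25 of the 68 genes, a share of 36.8%, against 9.93% of all 27025 genes with a window and 22.8% of those compared here. The NRF1 letters were in 13 (19.1%, against 5.19% of all and 13.0% of those compared), and the YY1 core in 12 (17.6%, against 2.60% and 6.52%). At least 1 of the 3 was in 40 windows, 58.8% against 15.8% of all and 37.1% of those compared. These shares describe letters, not binding.

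The stretches of 150 bases before the start are shown for the 2 members highest in log2 ratio, for Mrpl52 and Mrpl28 of the 7 at least 25% higher, as examples with and without a match, and for Mrps14, the lowest, with matches to the 3 motifs in capitals and GRCm38.p6 positions, all on the plus strand. Mrpl45 holds the NRF1 letters in both places marked, Mrpl34 the ETS core and Mrpl52 the ETS core on the reverse strand, and none of the 3 was found in the windows of Mrpl28 and Mrps14. Mrps31 and Mrps10, also among the 10 highest, held none either, while Mrpl12, Mrps12 and Mrpl51 held a match. Of the other members lower in the deficient library, Mrpl50 held the YY1 core. None of the 3 was found in the windows of Mrps36, Mrpl49, Mrps6, Mrpl55, Mrpl23 and Mrpl41. Whether a match goes with the log2 ratio was not tested.
Mrpl45, chr11:97315566-97315715: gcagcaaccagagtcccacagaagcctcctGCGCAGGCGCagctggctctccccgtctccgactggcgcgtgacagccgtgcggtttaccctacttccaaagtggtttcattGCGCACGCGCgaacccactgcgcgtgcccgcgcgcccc
Mrpl34, chr8:71464776-71464925: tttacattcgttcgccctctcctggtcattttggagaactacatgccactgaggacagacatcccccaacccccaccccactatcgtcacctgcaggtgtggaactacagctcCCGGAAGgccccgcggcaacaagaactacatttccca
Mrpl52, chr14:54426759-54426908: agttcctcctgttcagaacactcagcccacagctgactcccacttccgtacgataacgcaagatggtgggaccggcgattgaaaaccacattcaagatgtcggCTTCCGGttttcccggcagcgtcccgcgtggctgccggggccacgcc
Mrpl28, chr17:26123353-26123502: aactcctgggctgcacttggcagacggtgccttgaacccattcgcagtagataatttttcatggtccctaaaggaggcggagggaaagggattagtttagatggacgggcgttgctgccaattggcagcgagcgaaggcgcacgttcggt
Mrps14, chr1:160195065-160195214: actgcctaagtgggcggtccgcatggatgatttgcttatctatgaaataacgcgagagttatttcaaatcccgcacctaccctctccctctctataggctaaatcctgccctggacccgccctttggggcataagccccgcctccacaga
Members with the letters of these 3 motifs had slightly higher median log2 ratios than members without them. The median was 0.22 with the ETS core and 0.17 without it, 0.20 and 0.18 for the NRF1 letters, and 0.23 and 0.18 for the YY1 core. With at least 1 of the 3 it was 0.21, against 0.15 with none. Other letters searched the same way were the E-box CACGTG, in 5 of 68 windows (7.35%, against 8.09% of all and 12.7% of those compared), and TATAAA, also in 5 (against 15.7% of all and 7.85% of those compared). The median was 0.203 with the E-box and 0.176 without it, and 0.176 and 0.183 for TATAAA. A higher median was thus not particular to the 3 motifs.

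Neighbouring genes limit some of the values, because the library kit does not mark strand and reads of overlapping exons cannot be assigned. In GENCODE M21 30 members have an exon that overlaps an exon of another gene, and 26 have a start within 250 bases of the start of a gene on the opposite strand. Mrpl44 overlaps Wdfy1, which stood at 995 normalized counts in the deficient and 154 in the wild-type library, while Mrpl44 stood at 1108 against 1032. Mrpl49 overlaps Syvn1 (280 against 541) and Mrps6 shares an exon with Slc5a3 (1207 against 1859), both lower in the deficient library as these 2 members were. Other neighbours pointed away from their member: Mrps34 (log2 ratio 0.29) overlaps Mapk8ip3 (-0.32) and Nme3 (-0.18), Mrps7 (0.10) overlaps Gga3 (-0.79), and Mrpl49 (-0.083) shares its start region with Fau (0.28). The part of the neighbours' reads in these values was not tested. Over the 33 members without such a neighbour, Mrps14 among them, the median log2 ratio was 0.20 and 28 lay above the median of all genes. Of the 8 members with several transcript rows, Mrps33 had the widest range, with log2 ratios of 0.051 and 0.21.

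The genes that assemble and serve the mitochondrial ribosome had medians nearer to that of all genes than the members did before the length trend was removed, as the plot of gene lists shows. Of 26 assembly factors, which include GTPases, RNA helicases and methyltransferases of the ribosomal RNA, 0 were 2-fold different, 2 were at least 25% higher (13.8% of all genes) and 0 at least 20% lower (12.8% of all genes), and their log2 ratios had a median of 0.099 (at equal totals, 0.011). Malsu1, which keeps immature large subunits from joining, was read at 595 normalized counts in the deficient and 447 in the wild-type library, and the GTPase gene Mtg1 at 523 against 401. Mpv17l2 (480 against 384) and Mtg2 (731 against 619) had the next largest log2 ratios, 0.31 and 0.24. Of 16 translation factors 2 were at least 25% higher and 0 at least 20% lower, beside the same 13.8% and 12.8% of all genes, with a median of 0.11 (0.024 at equal totals). These lists have longer transcripts than the members, with median lengths of 1954 and 2563 bases. With the length and GC trend removed their medians were 0.0087 and 0.051, beside 0.072 for the members. The elongation factor gene Tsfm stood at 1384 against 1073, Taco1, an activator of the translation of a cytochrome oxidase subunit, at 381 against 301, Gfm1 at 4094 against 3343 and the recycling factor gene Mrrf at 837 against 703.

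Genes for mitochondrial DNA upkeep and transcription had a median of 0.079 in log2 ratio under the authors' scaling and one of -0.011 when totals were made equal. Of 14 compared, 0 were at least 25% higher and 1 was at least 20% lower, beside 13.8% and 12.8% of all genes. Polg2, the accessory subunit of the DNA polymerase, stood at 178 normalized counts in the deficient and 226 in the wild-type library, and Polrmt, the RNA polymerase of mitochondria, at 780 against 935. The packaging factor gene Tfam pointed the other way, at 3030 against 2524, as did Mterf1a at 117 against 93.3.

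Among 11 regulators of nuclear genes for mitochondria 3 were at least 20% lower (12.8% of all genes), 0 were at least 25% higher (13.8% of all genes), and the median log2 ratio was -0.066 (-0.15 at equal totals). The coactivator gene Ppargc1b was read at 228 normalized counts in the deficient and 357 in the wild-type library, 0.638-fold (0.525 to 0.771). Hcfc1, a cofactor of ETS-family and other factors, stood at 7014 against 10261, and Pprc1, a coactivator related to Ppargc1b, at 2099 against 3020. Gabpb1, a subunit of the ETS-family factor GABP, had a log2 ratio of 0.21, and Myc stood at 8590 against 8613.

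Import genes had a median close to that of the members. Of 25 genes of the import channels and their proteases 3 were at least 25% higher and 0 at least 20% lower, beside 13.8% and 12.8% of all genes, and the median log2 ratio was 0.21 with quartiles of 0.076 and 0.29. Timm8a1, a chaperone of the intermembrane space, was read at 326 normalized counts in the deficient and 224 in the wild-type library, and Timm17a, a part of the inner membrane channel, at 2970 against 2226. Tomm5 (1605 against 1278) and Tomm6 (1876 against 1506), small parts of the outer membrane channel, had log2 ratios of 0.33 and 0.32. With the trend removed the import list had a median of 0.093, next to 0.072 for the members.

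**Figure D5:**
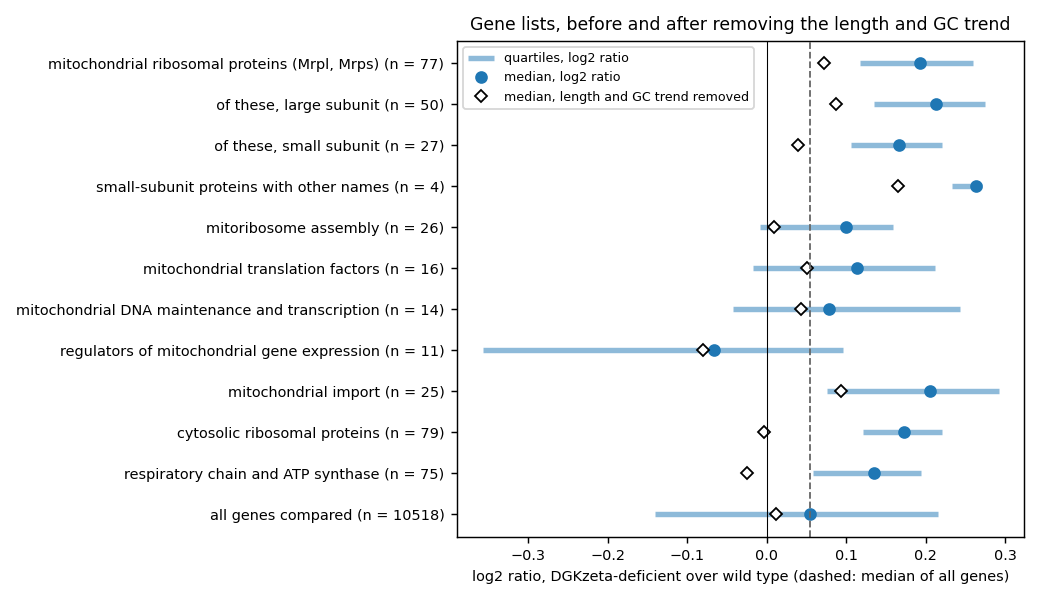
Median (circles) and quartiles (bars) of the log2 ratio of the DGKzeta-deficient over the wild-type library for 11 gene lists and all genes compared, with diamonds for the median after the length and GC trend was removed and a dashed line at the median of all genes. The median of the members is 0.072 with the trend removed, against 0.19 before, and those of cytosolic ribosomal proteins and the respiratory chain are then just below 0.

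The 2 classes most like the members, cytosolic ribosomal proteins and the subunits of the respiratory chain and ATP synthase, had similar ratios and even shorter transcripts. The median log2 ratio was 0.17 over 79 cytosolic ribosomal protein genes and 0.14 over 75 respiratory chain genes, with 0 genes of either class 2-fold different. Their median transcript lengths were 795 and 809 bases. The largest log2 ratios were 0.46 for Rpl22l1 (3471 against 2518 normalized counts), 0.42 for Rps16, 0.40 for Rps10 and 0.36 for Rpl10. In the respiratory chain and ATP synthase they were 0.44 for Ndufs5 (250.4 against 183 normalized counts), 0.42 for Ndufc1, 0.42 for Uqcrq and 0.35 for Atp5d. With the length and GC trend removed their medians were -0.0035 and -0.025, and 33 of 78 and 31 of 75 lay above the median of all genes, against 52 of the 77 members. The difference between the classes was not tested, since 1 library per genotype allows no test.

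In the authors' deposited table of the same comparison, 69 of the 77 members had a log2 fold change above 0 (36.6% of all 30433 rows with a value did). Those rows were taken without a minimum level, while all 77 members pass the minimum mean of 50 normalized counts. The 2 shares are therefore not alike. Among the 10518 genes that pass it, 58.2% had a log2 ratio above 0. The members' values in that table ran from -0.24 to 0.29 with a median of 0.14, and 0 members had an adjusted p-value under 0.05, beside 0% of all rows. The smallest unadjusted p-value of a member in the authors' deposited table was 0.22.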

How the data were processed

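RNA was sequenced from 1 DGKzeta-deficient and 1 wild-type library of stimulated CD8+ T cells. The submitters' processing notes name STAR (version 2), DESeq and the build mm9; which program counted the reads, and on which annotation, is not given in the sources used here. Normalized counts per RefSeq transcript row were deposited by the authors, a signal in which reads were divided by a size factor for each library. Of the values, 100% in both libraries were a whole number of times the lowest one above 0, with a relative tolerance set at 0.0001, which gave back whole reads (size factors 0.583 for the deficient and 1.71 for the wild-type library). edgeR has no residual degrees of freedom on those reads with 1 library per group, so no count test was run. The authors also deposited log2 fold changes, p-values and adjusted p-values, quoted only as theirs.

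Of 33018 rows, 1 with a shifted column was left out. Of 24013 symbols, 4911 have several rows, and the row with the highest mean stood for each. The 10518 genes whose mean reached 50 normalized counts were compared on log2 ratios with a pseudocount of 10, which understates the differences of low genes. Folds carry exact Clopper-Pearson 95% intervals; since reads carry no molecular identifiers and are not independent molecules, these cover counting error only. Lengths and GC content came from GENCODE M21 transcripts matched by RefSeq accession (77 of 77 members, 98.9% of genes compared), and a quadratic trend on log2 length and GC was removed by least squares as an alternative. The ratios, calls and intervals were tested on simulated data (Python 3.11.15, NumPy 2.4.6, pandas 2.3.3, SciPy 1.17.1).

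The members, gene lists, thresholds and alternatives were chosen with earlier results of these data known. Named are the 10 highest and 10 lowest members by log2 ratio, the 5 highest and 5 lowest by level, the members of the ribosome's functional parts, the Mrps18 genes, Mrps30, Mrps36, and the 4 genes of each other list with the largest absolute log2 ratio. Xist, the cell markers, Myc, the neighbouring genes, and the members Mrpl30, Mrpl33, Mrpl36, Mrpl42, Mrpl44, Mrpl54, Mrps7, Mrps11, Mrps34 and Mrps35 lie outside that rule and were chosen after their values were seen.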

Additional observations from a re-analysis of the deposited data

How the results depend on the processing

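Of 80 recomputed values under 10 alternatives 71 stayed within the counting half-width of 0.12 (medians) or within 1.5 times (counts) of those reported, 9 moved and 0 reversed. Pseudocounts of 1 and 50, a minimum mean of 200 or none, and the choice of transcript row moved 0 of them. These limits are wide, since 0.12 is the half-width of a single typical member. The members' median of 0.10 at equal totals, against 0.19 as reported, counts as unmoved. So do the 52 members above the median of all genes with the trend removed, against 67. The counts at 2-fold were 0 under every alternative. With the length and GC trend removed the median log2 ratio was 0.072 for all members, 0.088 for the large and 0.039 for the small subunit, 0 members were 25% higher or more and 2 were 20% lower or more. At equal totals 0 members, and after centring on the median of all genes 1 member, were at least 25% higher, against 7 as reported. With the 44 members that have an overlapping or start-sharing neighbour left out, 4 were at least 25% higher and 28 lay above the median of all genes, of 33. Both are among the 9 that moved, but they are counts over 33 members set against counts over 77. A count of at most 33 could not come within 1.5 times of 67, so that label was fixed in advance. The count 25% higher therefore depends on the scaling. No paired analysis was possible because there is 1 library per genotype, and for the same reason no library could be left out. The deficient library, with a median of 799 reads per member, limits what can be resolved for the lowest genes.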

Other observations

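As a set, head-to-head neighbours of the members did not share their band, though some of them lay in it. In 21 cases the protein-coding partner at a shared start region was itself compared. The partners had a median log2 ratio of 0.074, beside 0.20 for the members they face, and ran from -0.79 for Gga3, which faces Mrps7, to 2.62 for Wdfy1, which faces Mrpl44. Of the 21 partners 11 lay above the median of all genes. The length trend was not removed from these values, and the partners' transcript lengths were not compared with those of the members. Across these pairs the Pearson correlation of the log2 ratios was -0.13 and the Spearman correlation -0.030, given as a description of pairs from the same 2 libraries. Ncapd2, a condensin subunit gene facing Mrpl51, stood at 5934 normalized counts in the deficient and 4525 in the wild-type library, and Apba3, facing Mrpl54, at 954 against 571. Hira, a histone chaperone gene facing Mrpl40, stood at 1154 against 1245, while Mrpl40 stood at 2104 against 1726. Mrpl46 and Mrps11 overlap each other, with log2 ratios of 0.18 and 0.12. Their RefSeq promoter windows also overlap on opposite strands, but by the GENCODE gene starts this pair is not among the 21.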
